A study of Mus musculus with 4 samples.

Results

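The 9 genes described here, Pf4, Gp1bb, Gp5, Gp9, Itga2b, Vwf, F2r, P2rx1 and Sdpr, encode proteins of megakaryocytes and platelets. They were chosen by symbol, and all 9 of 9 symbols were found among the 27998 genes counted. RNA of single LSK cells, the Lin-Sca1+cKit+ stem and progenitor fraction of mouse bone marrow, was counted in 4 libraries, 2 labelled wild-type and 2 labelled Nup358 KO. By the study's methods the control mice were Nup358 fl/fl and the knockout mice were Nup358 fl/fl CreERT2, so both genotypes carried the floxed alleles and the Cre was present only in the knockout group. The Cre is expressed from the Rosa26 locus in all tissues and acts after tamoxifen, which mice received on 3 consecutive days, with bone marrow taken 5 days after tamoxifen. Recombination removes exon 2 of Nup358, a nucleoporin of the cytoplasmic filaments of the nuclear pore whose gene is listed as Ranbp2. Mice were 9 to 12 weeks old, and each library was a pool of 3 bone marrows, so that the library is the replicate (n = 2 per genotype).

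Megakaryocytes are large bone marrow cells that shed platelets into the blood. Platelets stick to damaged vessels through the GPIb-IX-V receptor, a complex to which Gp1bb, Gp9 and Gp5 contribute subunits and which binds von Willebrand factor, the product of Vwf. They then bind fibrinogen through an integrin whose alpha subunit, CD41, is encoded by Itga2b, and release stored proteins such as the chemokine platelet factor 4, encoded by Pf4. In the LSK fraction some of these genes are already transcribed at a low level in cells that lean towards the megakaryocyte fate, and Vwf is also known from a platelet-biased share of stem cells.

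The genes lie on 6 chromosomes in the GRCm38 build used for the counts. Pf4 spans chr5:90772435-90773383 on the plus strand with up to 3 exons in an annotated transcript, and Itga2b spans chr11:102453297-102470122 on the minus strand with up to 30 exons. Gp1bb at chr16:18620317-18622403 overlaps Sept5 on the same strand and Itga2b contains Gm23563 on its own strand, so reads in shared exons could have been dropped or split by the counting, and the levels of both are uncertain to that extent. Gp5 lies on the same chromosome at chr16:30307685-30310779, and Gp9 and Vwf lie on chromosome 6 at chr6:87778072-87779768 and chr6:125546774-125686679. P2rx1 at chr11:72999103-73015200, F2r at chr13:95601803-95618487 and Sdpr at chr1:51289126-51302960 complete the list. The annotation calls Sdpr by its newer name, Cavin2, and places a second gene on its opposite strand.

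Because these genes were higher together in cells gated by other megakaryocyte genes, the 250 bases before the start site are shown for 4 of them, namely the chemokine gene Pf4, the receptor gene Gp1bb, the integrin gene Itga2b and Gp5, whose promoter was the only one of those matched to hold both motifs searched. RefSeq promoters of GRCm38.p6 were found for 8 of the 9 genes, and Vwf had no entry. The start sites are those of RefSeq, and for Itga2b this site lies inside the annotated span given above. Nearly all of the Itga2b window therefore falls within that span and not before it. The sequences run 5′ to 3′ on the gene's own strand, and capitals mark matches to the letters of a GATA motif (AGATAA or TGATAA) or an ETS motif (AGGAAG or CGGAAG) on either strand. No match overlaps another in the sequences printed. On the reverse strand they read TTATCT or TTATCA and CTTCCT or CTTCCG.
Pf4, chr5:90772185-90772434, plus strand: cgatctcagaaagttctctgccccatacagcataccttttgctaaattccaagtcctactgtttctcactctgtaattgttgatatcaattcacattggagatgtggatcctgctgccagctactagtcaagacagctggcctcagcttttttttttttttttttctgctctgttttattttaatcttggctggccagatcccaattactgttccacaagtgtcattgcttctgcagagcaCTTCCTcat
Gp1bb, chr16:18622404-18622653, minus strand: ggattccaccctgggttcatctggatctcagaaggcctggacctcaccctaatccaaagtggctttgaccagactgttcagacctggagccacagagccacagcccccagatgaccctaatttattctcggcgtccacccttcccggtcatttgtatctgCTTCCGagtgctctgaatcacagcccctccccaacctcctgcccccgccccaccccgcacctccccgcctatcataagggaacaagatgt
Gp5, chr16:30310782-30311031, minus strand: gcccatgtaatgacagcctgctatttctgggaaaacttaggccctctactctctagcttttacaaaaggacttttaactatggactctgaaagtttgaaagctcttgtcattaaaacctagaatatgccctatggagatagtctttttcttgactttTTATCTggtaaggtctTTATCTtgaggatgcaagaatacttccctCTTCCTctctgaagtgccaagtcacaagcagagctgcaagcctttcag
Itga2b, chr11:102469884-102470133, minus strand: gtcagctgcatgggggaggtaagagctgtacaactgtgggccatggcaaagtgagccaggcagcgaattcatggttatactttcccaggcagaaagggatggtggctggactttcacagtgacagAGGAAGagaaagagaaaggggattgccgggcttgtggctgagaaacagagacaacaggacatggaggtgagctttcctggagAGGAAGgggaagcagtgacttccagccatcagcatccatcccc
ETS letters were present in 5 of the 8 promoters (62.5%), against 39.2% of 32841 RefSeq promoter windows of the same length. GATA letters were present in 2 of the 8, those of Gp5 and P2rx1, against 16.6% of all windows. Letters of both motifs were present only in that of Gp5, against 5.49% of all windows. A match is a run of letters and not a measured binding site.

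The libraries differed in depth and in how many of their barcodes they shared. UMIs are unique molecular identifiers, each standing for 1 captured RNA molecule. The cells kept had a median of 6251, 13180, 17710 and 14400 UMIs in control 1, control 2, knockout 1 and knockout 2. Median depth was thus higher in both knockouts than in both controls, and depth and genotype cannot be told apart in the summed levels. Of 25242 barcodes, 6680 sequences were shared by libraries, and 10936 barcodes had at least 3 times as many UMIs under the same sequence in another library. These copied barcodes made up 14.8% of control 1, 81.8% of control 2, 65.3% of knockout 1 and 18.8% of knockout 2, and they were left out, which kept 14041 cells. The gene for Nup358 itself did not differ in the sums over all cells, with a log2 fold change of 0.09 ± 0.15 (SE, edgeR adjusted p = 0.777 for Ranbp2), but a 3′ tag does not read the deleted exon and so does not check the genotype.

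Cells were sorted into classes by marker genes that exclude the 9 genes, after each cell was thinned to 2000 UMIs so that depth did not set the class. A cell with at least 2 UMIs of a list of other megakaryocyte genes was called Mk-gated (1120 cells), and a cell with at least 2 UMIs of stem cell genes that passed no lineage gate was called stem-gated (1302 cells). The 6223 cells that passed no gate are called ungated. Erythroid (215), neutrophil (3246) and lymphoid (623) gates gave the other classes with at least 20 cells in every library. The Mk gate rested on Nrgn, which gave 80.9% of its UMIs, while late platelet genes were rare in these cells: 4 UMIs of Ppbp, 2 of Tubb1 and 5 of Gp1ba were counted in all 1120 cells, and Gp6 and Cmtm5 were at 0. Of the 1120 cells, 766 held exactly 2 UMIs of the list, and 3162 cells outside the gate held 1. Among the 10 genes with the largest fold over ungated cells were Pf4, Gp1bb and Sdpr of the genes described here and F2rl2 of the gate's own list, and the others were Kcnj5, F10, Smtnl1, Gm10419, Cdc42ep5 and Ache. The Mk-gated share of cells was 7.87%, 10.2%, 6.65% and 9.44% in control 1, control 2, knockout 1 and knockout 2. The mean share was 9.01% ± 1.62 in controls and 8.05% ± 1.97 in knockouts (SD, n = 2 each; exact permutation test, two-sided, p = 0.667, with 0.333 the smallest p that 4 libraries allow). Stem-gated shares were 11.4% ± 4.35 and 10.6% ± 0.212 (exact permutation p = 1).

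All 9 genes were higher in Mk-gated than in ungated cells, and the chemokine gene Pf4 differed most. Levels are given as CPM, the UMIs of a gene per 1000000 UMIs summed over the cells of a class in a library. Because the libraries tag the 3′ end of an RNA, gene length was not divided out. In Mk-gated cells Pf4 stood at 524, 361, 199.5 and 249 CPM in control 1, control 2, knockout 1 and knockout 2. In ungated cells it stood at 44.5, 5.81, 26.5 and 43.8 CPM, so every Mk-gated library was above every ungated one. The log2 fold change over ungated cells was 3.34 ± 0.24 (SE, edgeR quasi-likelihood test with library as a block, adjusted p = 4.4e-10). Pf4 alone gave between 48.6% and 59.2% of the UMIs of the 9 genes in Mk-gated cells.

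**Figure D1:**
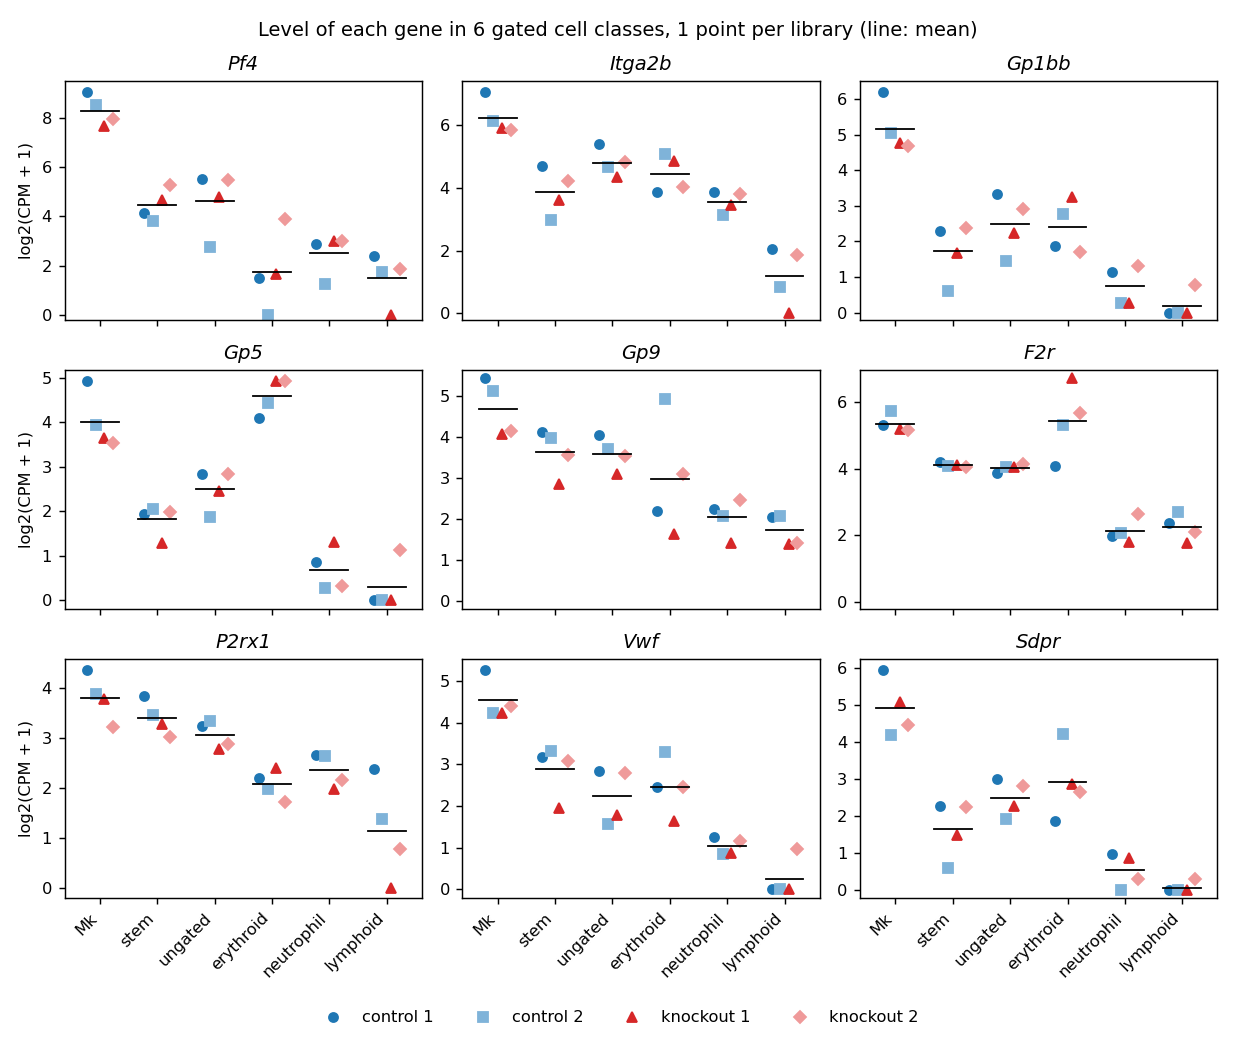
Level of each of the 9 genes, as log2(CPM + 1), in 6 gated classes of cells, with 1 point per library and a line at the mean of the 4 libraries. All 9 genes are higher in Mk-gated than in ungated cells on average, Pf4 with a mean of 333 against 30.2 CPM, while F2r and Gp5 have their highest mean in erythroid-gated cells.

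The adhesion receptor genes followed. Gp1bb, the beta chain bound to the receptor's ligand-binding alpha chain, had 72.4, 32.3, 26.3 and 24.5 CPM in Mk-gated cells of control 1, control 2, knockout 1 and knockout 2, against 1.72 to 9.04 CPM in ungated cells. Its groups did not overlap, and the log2 fold change was 2.65 ± 0.18 (SE). Gp9 had 42.3, 33.6, 15.8 and 16.7 CPM in Mk-gated cells, against 7.49 to 15.5 CPM in ungated cells. The Mk-gated and ungated libraries of Gp9 were close where they met, at 15.8 and 15.5 CPM, and the log2 fold change was 1.10 ± 0.13 (SE). Gp5 had 29.5, 14.4, 11.6 and 10.6 CPM against 2.64 to 6.12 CPM, a log2 fold change of 1.57 ± 0.20 (SE). Itga2b, which is also used as a surface marker of early megakaryocyte progenitors, had 130, 68.0, 58.4 and 55.9 CPM against 19.3 to 40.4 CPM, a log2 fold change of 1.39 ± 0.09 (SE). Control 1 had the highest Mk-gated value for each of these 4 genes.

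Vwf, the ligand of that receptor, had 37.4, 17.8, 17.9 and 20.1 CPM in Mk-gated cells and 1.98 to 6.18 CPM in ungated cells, a log2 fold change of 2.30 ± 0.18 (SE). Sdpr, whose product coats the membrane pits called caveolae, had 60.3, 17.2, 32.6 and 21.0 CPM against 2.77 to 7.06 CPM, a log2 fold change of 2.56 ± 0.17 (SE). Both genes were separated from ungated cells in every library. How many of all genes separate in this way was not counted, for these or for the genes above. The signalling receptors differed less. F2r, the thrombin receptor PAR1, which mouse platelets are known to lack in favour of other members of its family, had 38.3, 51.5, 35.8 and 34.7 CPM against 13.5 to 16.6 CPM, a log2 fold change of 1.27 ± 0.10 (SE). P2rx1, an ATP-gated cation channel, had 19.5, 13.7, 12.6 and 8.23 CPM against 5.86 to 9.11 CPM and overlapped ungated cells. Its log2 fold change was 0.79 ± 0.16 (SE, edgeR adjusted p = 0.00128, and 0.0745 without control 1).

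Read together, 9 of 9 genes were called higher in Mk-gated than in ungated cells, where 4.71% of 11317 genes tested were called higher, at an edgeR adjusted p under 0.05. The 9 genes and the gate lists were chosen with earlier results of these data known, so these counts are a description. The median log2 fold change of the 9 was 1.57, beside -0.01 over all genes tested. Against stem-gated cells 8 of 9 were called higher, beside 3.6% of all genes, with a median log2 fold change of 2.27 and P2rx1 as the exception (log2 fold change 0.48 ± 0.19, SE, adjusted p = 0.143). Sdpr, Gp1bb and Pf4 had the largest differences from stem-gated cells, at 3.53 ± 0.28, 3.63 ± 0.29 and 3.78 ± 0.31 (SE) on the log2 scale.

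**Figure D2:**
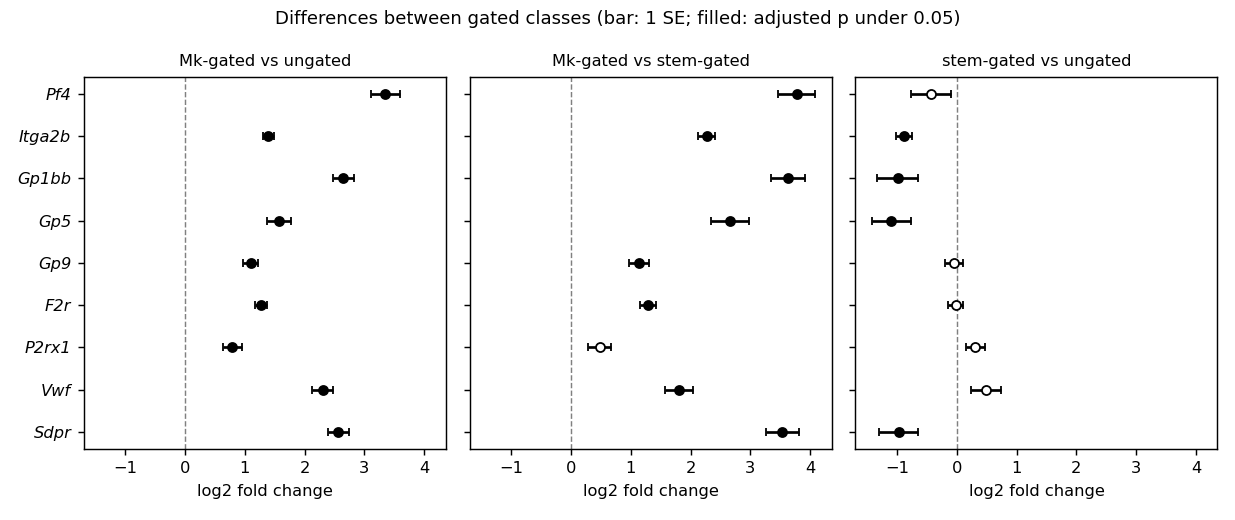
Log2 fold changes of the 9 genes between gated classes, with bars of 1 SE and filled points for an edgeR adjusted p under 0.05. All 9 points are filled and above 0 in Mk-gated against ungated cells, 8 of 9 are filled in Mk-gated against stem-gated cells, and 4 are filled and below 0 in stem-gated against ungated cells.

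In stem-gated cells none of the 9 genes was called higher than in ungated cells, beside 10.8% of all genes tested. The integrin and receptor genes Itga2b, Gp1bb and Gp5 and the caveolae gene Sdpr were lower there, 4 of 9 genes called lower beside 14.1% of all genes tested. Itga2b had 24.9, 6.85, 11.2 and 17.3 CPM in stem-gated cells of control 1, control 2, knockout 1 and knockout 2, below the ungated value of the same library each time, and its log2 fold change was -0.88 ± 0.14 (SE, edgeR adjusted p = 4.95e-05). The other 3 rested on few molecules: in stem-gated cells Gp1bb had 1 to 20 UMIs a library, Sdpr 1 to 18 and Gp5 4 to 14. Vwf had 8.07, 8.96, 2.899 and 7.52 CPM in stem-gated and 6.18, 1.98, 2.45 and 5.96 CPM in ungated cells. It was higher in stem-gated cells in all 4 libraries, with a log2 fold change of 0.49 ± 0.25 (SE) that did not pass the test (adjusted p = 0.152). P2rx1 was likewise higher in all 4 libraries at 0.31 ± 0.16 (SE, adjusted p = 0.177). The share of all genes that differ in the same direction in all 4 libraries was not counted.

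Among the 6 classes with at least 20 cells in every library, the order was not the same for all 9 genes. F2r and Gp5 had their highest mean in the erythroid gate, which holds as few as 20 cells in a library. Tests between classes were run only for Mk-gated, stem-gated and ungated cells, so this order was not tested. It leaves out the 15 cells that passed both the Mk and the erythroid gate, 1 to 8 a library. Their mean was above the Mk-gated mean for all of the 9 genes but Pf4 and P2rx1. F2r had 16.1, 38.3, 103.5 and 49.9 CPM in erythroid-gated cells of control 1, control 2, knockout 1 and knockout 2, a range that spans its Mk-gated values. Gp5 had 16.1, 20.6, 29.6 and 29.5 CPM there, from 7 to 39 UMIs a library. Pf4 was nearly absent from the same cells, with 0 to 18 UMIs a library and a mean of 4.38 ± 6.23 CPM (SD, n = 4). For the other 7 genes the Mk gate had the highest mean, and second place varied between ungated cells (Pf4, Gp1bb, Itga2b), stem-gated cells (Gp9, P2rx1, Vwf) and erythroid-gated cells (Sdpr), whose libraries overlapped those of the next class for each gene. Lymphoid-gated cells were last for 8 of the 9 genes and neutrophil-gated cells for F2r. In lymphoid-gated cells the 9 genes together gave 18.8, 13.4, 4.07 and 14.0 CPM, against 954, 609.5, 411 and 440.3 CPM in Mk-gated cells of the same libraries.

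Cells with several of the 9 genes were a minority in each of the 6 classes with at least 20 cells in every library, and their share was highest in the Mk gate of control 1. At 2000 UMIs per cell, 3 or more of them had a UMI in 11.4% of Mk-gated cells of control 1 and in 6.61%, 5% and 4.29% of those of control 2, knockout 1 and knockout 2. The same held for 1.13%, 0.185%, 0.332% and 0.931% of ungated cells, for 0 to 1.27% of stem-gated cells and for no lymphoid-gated cell in 623. Most Mk-gated cells, between 57.9% and 74.0%, had no UMI of any of the 9 genes at that depth. Among all gated cells, 48.3% of the 143 cells with a Sdpr UMI also had a Pf4 UMI, against 2.59% of cells without Sdpr. Of the 176 cells with Gp1bb, 40.9% had Pf4 against 2.58% of the rest. P2rx1 stood apart, since 5.78% of its 225 cells had Pf4 against 3.03% of the rest. These shares are a description over cells of 4 libraries, and deeper or larger cells hold more of every gene before thinning.

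**Figure D3:**
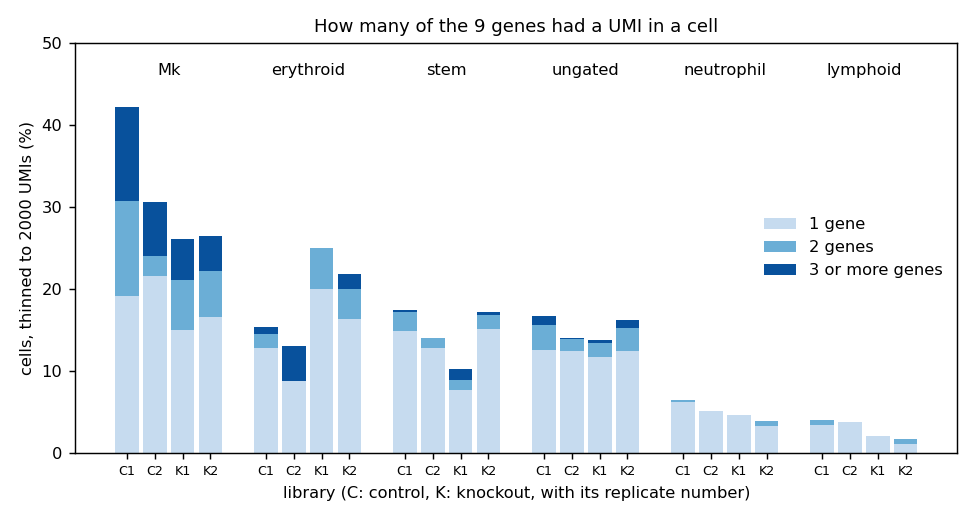
Share of cells, after thinning each to 2000 UMIs, in which 1, 2 or at least 3 of the 9 genes had a UMI, for 6 gated classes and 4 libraries. Cells with 3 or more genes make up 4.29% to 11.4% of Mk-gated cells and at most 1.27% of stem-gated cells.

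Pf4 molecules were concentrated in few cells. In Mk-gated cells the 5 highest cells of a library held 28.7% of its Pf4 UMIs in control 1, 84.0% in control 2, 91.3% in knockout 1 and 72.0% in knockout 2. Those 5 cells were 0.839%, 4.13%, 5% and 1.65% of the class, so a larger share was removed from the small libraries. Without them the Pf4 level was 381, 61.0, 18.8 and 71.3 CPM. Gp9 was spread more evenly, with 7.91%, 30.6%, 36.7% and 18.2% of its Mk-gated UMIs in the 5 highest cells. The highest single cell held 304 Pf4 UMIs, in knockout 2, and 4 Gp9 UMIs was the most in any cell of that class and library.

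Across 24 sums of a library and a gated class, the genes whose log2(CPM + 1) followed the summed level of the 9 genes most closely were Rab27b (Pearson r = 0.94), Tmem40 (0.92), Treml1 (0.91), Adamtsl5 (0.91), Fgf3 (0.90), Pttg1ip (0.89), Stard4 (0.87), Smim5 (0.87), Rbpms2 (0.87) and Rab11a (0.86), out of 12240 genes ranked. Rab27b and Treml1, which act in granule release and on the surface of activated platelets, are also in the list that set the Mk gate. The sums share libraries and depth, and the correlations are a description.

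Of 56 further megakaryocyte and platelet genes, 44 could be tested between Mk-gated and ungated cells. Of these, 28 were called higher and none lower, beside 4.71% and 5.57% of all genes tested. The 44 include genes of the Mk gate list, whose UMIs set the class. Of the 37 that no gate used, 21 were called higher, with a median log2 fold change of 0.40 over the 37. F10, which encodes coagulation factor X, had the largest of them at 3.31 ± 0.40 (SE), and F2rl2, Treml1, Serpine2 and Rab27b, all of the gate list, had 2.66, 2.31, 2.30 and 2.05. In stem-gated against ungated cells 14 of 44 were called higher and 5 lower, beside 10.8% and 14.1% of all genes tested. The platelet multimerin gene Mmrn1 (1.28 ± 0.15, SE) was higher, while Clu fell by 1.71 (SE 0.29) on the log2 scale. Trpc6, Treml1 and Jam3 completed the 5 largest, at 1.17, -1.02 and 1.01.

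Loss of Nup358 was compared first over all sorted cells, and no difference in any of the 9 genes passed the test there. Pf4 had 46.7, 32.3, 31.6 and 54.0 CPM in control 1, control 2, knockout 1 and knockout 2, and Itga2b had 28.1, 19.1, 19.0 and 25.8 CPM. Each knockout library lay near a control library, and the log2 fold changes of knockout over control were 0.08 ± 0.28 for Pf4 and -0.12 ± 0.23 (SE) for Itga2b. Of the 9 genes 0 were called, beside 3.44% of 13779 genes tested (474 called), and 1 of 9, P2rx1, had an unadjusted edgeR p under 0.05, as had 21.7% of all genes tested. DESeq2 also called 0 of the 9, beside 6.87% of all genes tested. P2rx1 had 7.42, 7.64, 5.87 and 5.68 CPM, so both knockout libraries were below both controls, with a log2 fold change of -0.42 ± 0.18 (SE, adjusted p = 0.229). Of the 9 genes 2, P2rx1 and Gp9, were so placed, beside 20.3% of all genes with a UMI. F2r was the opposite case, above both controls in both knockouts, as were 28% of all genes with a UMI. It had 9.13, 14.4, 15.7 and 16.8 CPM and a log2 fold change of 0.44 ± 0.24 (SE, adjusted p = 0.345). Control 1, whose cells were shallowest, had the lowest value: without it the log2 fold change was 0.11, and without control 2 it was 0.81 (edgeR adjusted p = 0.00788, with the spread taken from the knockout pair alone). Neutrophil-gated cells, where F2r had the lowest mean at 3.47 CPM, were 35.5% and 16.6% of cells in control 1 and control 2 and 11.6% and 5.67% in knockout 1 and knockout 2, and their part in the F2r values was not tested. In summed counts, fewer cells that use a gene and less RNA of it per cell cannot be told apart.

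**Figure D4:**
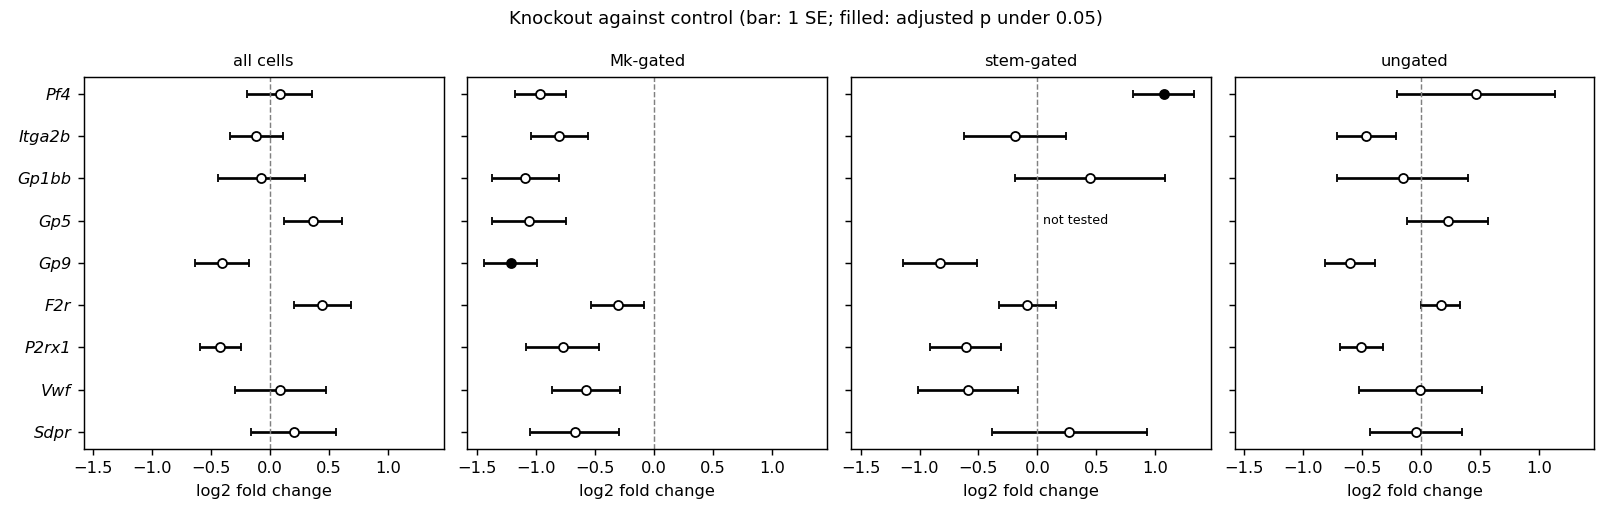
Log2 fold changes of knockout over control for the 9 genes in all cells and in Mk-gated, stem-gated and ungated cells, with bars of 1 SE and filled points for an edgeR adjusted p under 0.05. The Mk-gated values are all below 0 with Gp9 filled, and Pf4 is filled above 0 in stem-gated cells. Gp5 was not tested in stem-gated cells.

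Within Mk-gated cells the log2 fold changes of knockout over control were below 0 for all 9 genes, and that of Gp9, the small subunit of the adhesion receptor, passed the test. With 42.3 and 33.6 CPM in the controls and 15.8 and 16.7 CPM in the knockouts, Gp9 fell by 1.21 on the log2 scale (SE 0.23, edgeR adjusted p = 0.0238). The share of cells with Gp9, which rests on the same UMIs, separated the genotypes only after thinning. Thinned to 5000 UMIs, 20.7% and 17.5% of Mk-gated cells had a Gp9 UMI in control 1 and control 2, and 4.30% and 8.87% in knockout 1 and knockout 2. The exact 95% intervals were 16.0 to 26.0, 11.2 to 25.5, 1.18 to 10.6 and 5.88 to 12.7%, so those of control 2 and knockout 2 overlapped. In lymphoid-gated cells the share was 0 to 1.72%. Thinning left out 325 of 596 Mk-gated cells in control 1 and 1 to 10 in each other library. Before thinning the shares were 19.3%, 25.6%, 24.0% and 20.5%, at median depths of 4750, 10780, 16986 and 13712 UMIs, and did not separate. Mk-gated cells were thus deeper in both knockouts than in both controls. The summed level of the 9 genes, at 954, 609.5, 411 and 440.3 CPM, ran in the reverse order of depth. Depth and genotype therefore cannot be told apart in the Mk-gated levels. The fall of Gp9 did not pass the test with DESeq2 (adjusted p = 0.0683), without knockout 1 (0.107), without knockout 2 (0.0812), with 1000 UMIs in gating (0.0685) or with the gate without Nrgn (0.0538), where the log2 fold change stayed between -1.42 and -1.08.

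The other 8 genes had log2 fold changes between -1.09 and -0.31 in Mk-gated cells and were not called. Gp1bb (72.4 and 32.3 against 26.3 and 24.5 CPM) had -1.09 ± 0.28, Gp5 had -1.06 ± 0.31, and Itga2b (130 and 68.0 against 58.4 and 55.9 CPM) had -0.80 ± 0.24 (SE), with adjusted p of 0.078, 0.114 and 0.128 by edgeR. Pf4, at 524 and 361 against 199.5 and 249 CPM, had -0.96 ± 0.22 (SE, adjusted p = 0.0506), and was called by DESeq2 (adjusted p = 0.00649). It was also called with a gate of at least 3 UMIs (-1.95, adjusted p = 0.00595) and with 1000 UMIs in gating (-2.92, adjusted p = 0.00276), and the median of the 9 genes was then -1.34 and -1.44. With the gate without Nrgn, 0 of the 9 genes were called, Pf4 included. Their median was then -0.64, with 1 of the 9 above 0. Gp1bb was called with a gate of at least 3 UMIs (-1.57, edgeR adjusted p = 0.00845). Sdpr and Vwf had libraries of both genotypes intermixed, and without control 1 their log2 fold changes were 0.52 and 0.07. Both knockout libraries lay below both controls for 7 of the 9 genes, beside 22.2% of all genes with a UMI. At the threshold, 1 of 9 was called lower beside 1.01% of 10198 genes tested (103 of 133 called genes were lower), and the median log2 fold change was -0.80 for the 9 genes and -0.0027 over all genes tested. Single libraries moved these counts: without control 1 the median of the 9 was -0.44 with 2 called, without control 2 it was -1.15 with 8 called, and without knockout 1 or knockout 2 none was called. In each of these fits 1 group is a single library, and the spread comes from the other pair. With the copied barcodes kept, Gp9 (adjusted p = 0.0228) and Pf4 (0.0473) were called. Nrgn, which set most of the gate, moved in the same direction at -0.59 ± 0.20 (SE, edgeR adjusted p = 0.158), and its part in the result was not tested. None of the 44 other platelet genes tested was called by edgeR or DESeq2 in these cells, beside 1.30% and 0.90% of all genes tested. Of the 44, 12 had an unadjusted edgeR p under 0.05 beside 16.8% of all genes tested, and the median log2 fold change of the 44 was -0.21. Of the 9 genes described here, 6 had an unadjusted edgeR p under 0.05 in these cells.

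In stem-gated cells Pf4 went the other way. It had 16.5 and 13.2 CPM in control 1 and control 2 and 24.6 and 37.4 CPM in knockout 1 and knockout 2, from 25 to 179 UMIs a library. Both knockouts lay above both controls, as for 22.4% of all genes with a UMI. The log2 fold change was 1.07 ± 0.26 (SE, edgeR adjusted p = 0.0491, 1 of 8 genes tested called higher beside 1.77% of 10373 genes). At 5000 UMIs per cell, 2.69%, 7.19%, 10.1% and 8.10% of stem-gated cells had a Pf4 UMI, and the interval of control 2 (3.77 to 12.2%) covered both knockouts. Thinning left out 442 of 628 stem-gated cells in control 1. Before thinning the shares were 3.82%, 10.5%, 15.3% and 17.4%, at median depths of 3697, 10094, 13682 and 12122 UMIs. Lymphoid-gated cells had 2.15%, 1.27%, 0 and 1.16% at 5000 UMIs, so control 1 was at that background. Without its 5 highest cells each library had 6.72, 7.01, 9.14 and 18.9 CPM. The call was lost with DESeq2 (adjusted p = 0.11), without knockout 2 (0.447) and with a gate of at least 3 UMIs (0.467), and the sign turned with gating at 1000 UMIs (-0.78, adjusted p = 0.282). With the copied barcodes kept it held (adjusted p = 0.0406).

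No other gene passed the test in stem-gated cells. Of the 8 tested, 2, Pf4 and Gp9, had an unadjusted edgeR p under 0.05, as had 25.5% of all genes tested. Both knockouts lay below both controls for 3 of the 9 genes, Gp9, P2rx1 and Vwf, beside 23.4% of all genes with a UMI. Gp9 had 16.5 and 14.8 against 6.16 and 10.9 CPM (log2 fold change -0.83 ± 0.32, SE, edgeR adjusted p = 0.143). P2rx1 had 13.3 and 10.0 against 8.70 and 7.10 CPM (-0.61 ± 0.30, adjusted p = 0.234). Vwf had 8.07 and 8.96 against 2.899 and 7.52 CPM (-0.59 ± 0.42, adjusted p = 0.422). Itga2b, F2r, Sdpr and Gp1bb ranged from -0.19 to 0.44, with SEs up to 0.66, and Gp5 fell below the filter on low counts with 4 to 14 UMIs a library. Among the other platelet genes, 2 of 38 were called lower, beside 3.28% of all genes tested: the matrix glycoprotein gene Thbs1 fell by 2.85 (SE 0.54) and the thromboxane synthase gene Tbxas1 fell by 0.92 (SE 0.18) on the log2 scale.

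The change of Pf4 with genotype differed between the gates. The difference, as the change in Mk-gated cells minus that in stem-gated cells, was -2.08 ± 0.18 on the log2 scale (SE, edgeR interaction test, adjusted p = 6.26e-08). It was 1 of 9 genes called lower, beside 0.477% of 10686 genes tested, and it was called in all 11 settings run, with values from -2.41 to -1.001. The smallest value was given by the Mk gate without Nrgn. Nrgn itself had a difference of -0.87 ± 0.09 (SE, adjusted p = 5.98e-07), and its part in the Pf4 result was not tested. Gp1bb had -1.60 ± 0.51 and Itga2b -0.65 ± 0.25 (SE), with adjusted p of 0.216 and 0.378, and the other 6 lay between -1.03 and -0.07.

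**Figure D5:**
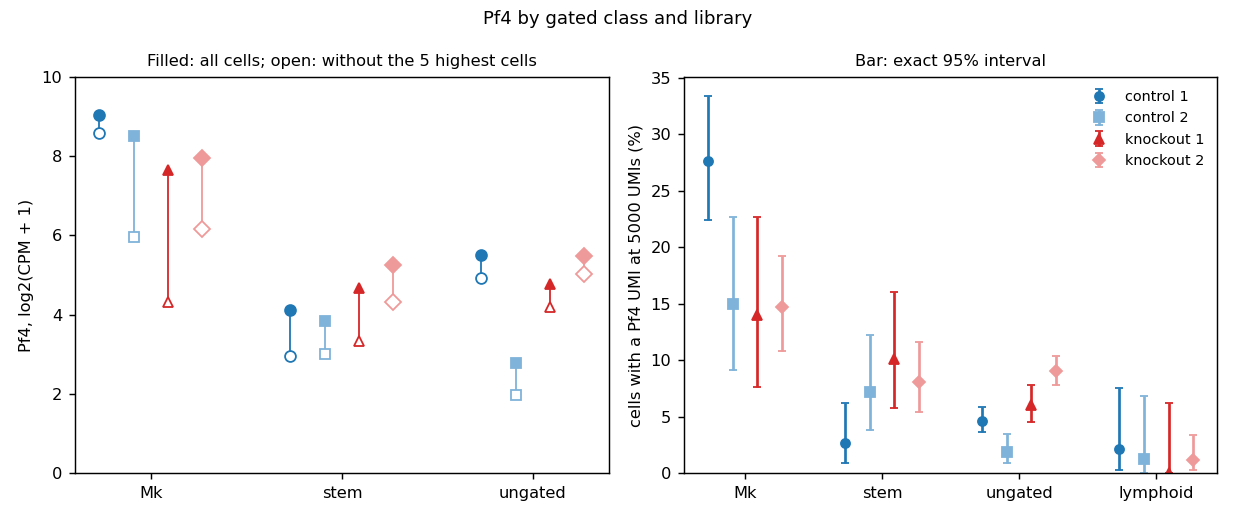
Pf4 by gated class and library: on the left the level as log2(CPM + 1) with all cells (filled) and without the 5 highest cells (open), on the right the share of cells with a Pf4 UMI after thinning to 5000 UMIs, with exact 95% intervals. Removing 5 cells, 5% of the class, lowers Mk-gated knockout 1 from 199.5 to 18.8 CPM, and ungated control 2 has the lowest ungated share at 1.88%.

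In ungated cells, 46.2% of all gated cells, no gene of the 9 was called by edgeR or DESeq2. Of 12656 genes tested, 3.54% were called by edgeR and 6.22% by DESeq2. Of the 9, 2 had an unadjusted edgeR p under 0.05, as had 26.2% of all genes tested. These were Gp9, at 15.5 and 12.1 against 7.49 and 10.5 CPM (log2 fold change -0.60 ± 0.21, SE, adjusted p = 0.139), and P2rx1, at 8.46 and 9.11 against 5.86 and 6.29 CPM (-0.51 ± 0.18, SE, adjusted p = 0.146). Gp9 and P2rx1 were below both controls in both knockouts in all cells and in each of the 3 classes, which share libraries. In a single comparison 20.3% (all cells), 22.2% (Mk-gated), 23.4% (stem-gated) and 24.2% (ungated) of all genes with a UMI were so placed. The share of all genes so placed in every comparison at once was not counted. It cannot be taken from the single shares, since all cells include the 3 classes. Pf4 had 44.5 and 5.81 against 26.5 and 43.8 CPM, so both knockouts lay between the controls (0.47 ± 0.67, SE). At 5000 UMIs per cell, 4.63%, 1.88%, 5.99% and 9.02% of ungated cells had a Pf4 UMI (before thinning 4.57%, 4.99%, 19.6% and 18.9%, at median depths of 5214, 12723, 19452 and 15390 UMIs). Their share of all Pf4 UMIs was 27.9% and 7.22% in the controls and 53.3% and 50.3% in the knockouts. The class itself differed in the same way, since ungated cells held 29.2% and 40.2% of the UMIs of all genes in the controls and 63.8% and 62.3% in the knockouts, and they were 37.5% and 45.4% against 60.2% and 60.3% of cells. Mk-gated cells held 62.9% and 86.4% of Pf4 UMIs in the controls against 36.6% and 39.5% in the knockouts, beside 5.60% and 7.73% against 5.82% and 8.61% of the UMIs of all genes. Among the other platelet genes Thbs1 and Tbxas1, 2 of 48, were called lower in ungated cells, at -2.40 ± 0.34 and -0.72 ± 0.14 (SE), beside 2.6% of all genes tested. Over all cells 2 of 49 were called lower, beside 2.07% of all genes tested: F10 fell by 3.17 (SE 0.28) and Thbs1 fell by 1.95 (SE 0.30).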

How the data were processed

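UMI counts of 4 libraries (10x Genomics 3′ kit) were analysed. The deposited counts are raw whole-number UMIs per gene and barcode, made by the authors with Cell Ranger (version 3.1) on mm10 (GRCm38), as the submitters' processing notes list, without normalization. Members and gene lists were chosen with earlier results of these data known.

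A cell needed 200 genes and no more than 10% of UMIs from mitochondrial genes, which 24973 of 25242 barcodes met. A barcode was left out as copied when another library held at least 3 times its UMIs under the same sequence. Sequences shared with a smaller difference in UMIs were kept in each library, and how many remained was not counted. Each cell was thinned to 2000 UMIs (seed 1), and 13480 of 14041 cells reached that depth and got a class. Gates needed at least 2 UMIs (Mk, erythroid, stem), 3 (lymphoid, basophil-mast, monocyte-dendritic) or 5 (neutrophil). No doublet caller was run, and cells of more than 1 lineage gate formed a mixed class of 568, apart from 15 Mk-erythroid cells. UMIs were summed per library and class, between 18846887 and 59033602 over all cells of a library. Sums were tested with edgeR 4.0.16 in R 4.3.3 (filterByExpr, trimmed mean of M-values, quasi-likelihood test, Benjamini-Hochberg adjustment over all genes tested, called under 0.05). The SE is the log2 fold change divided by the root of F. Gate contrasts used the Mk-gated, stem-gated and ungated sums with library as a block. Named were all 9 genes, up to 5 other platelet genes called with the largest change, the 10 most alike in pattern and the 10 leading genes of the Mk gate. Python 3.11.15, numpy 2.4.6 and scipy 1.17.1 were used otherwise. Intervals on shares and levels cover counting error only, exact Clopper-Pearson at 95%.

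The alternatives were DESeq2 1.42.0, no filter on low counts, copied barcodes kept, each library left out, the replicate number as a block, 1000 UMIs in gating, 3 UMIs for the Mk and stem gates, and, added after seeing the data, an Mk gate without Nrgn with at least 1 UMI, crossed replicate numbers and shares of cells at 5000 UMIs. The test was tried on simulated counts, drawn with the spread fitted to these same sums. These counts do not mimic UMIs held by few cells, so they do not check the test in that case. Same-numbered libraries are not known to share animals or days. The libraries are separate pools of mice, and the p-values of knockout against control measure the spread between them. The gate contrasts and the interaction had library as a block, which takes out the level of each library. Their p-values measure only the spread left in the differences between classes of the same library.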

Additional observations from a re-analysis of the deposited data

Results flagged for a closer look

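The genotype effect on Pf4 differed between Mk-gated and stem-gated cells. The effect in Mk-gated cells minus that in stem-gated cells was -2.08 on the log2 scale (edgeR interaction test, adjusted p = 6.26e-08), since Pf4 had -0.96 in Mk-gated and 1.07 in stem-gated cells. Both knockouts were below both controls in Mk-gated cells, as for 22.2% of all genes with a UMI. They were above both in stem-gated cells, as for 22.4%. The stem-gated change alone was close to the threshold (edgeR adjusted p = 0.0491). It was not called with DESeq2 or with a gate of at least 3 UMIs. With 1000 UMIs in gating Pf4 was lower in knockouts in both gates, at -2.92 in Mk-gated and -0.78 in stem-gated cells. The Mk-gated level rests on few cells, as the 5 highest cells held 28.7% to 91.3% of a library's Pf4 UMIs. Without those 5 cells control 2 (61.0 CPM) lay below knockout 2 (71.3 CPM). The gate gene Nrgn had a difference of -0.87 in the same test (adjusted p = 5.98e-07), and its part was not tested.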

How the results depend on the processing

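Over single genes, 514 results kept their direction and side of the threshold, 30 passed it newly, 21 lost it and 26 changed sign. The cause was not tested. For knockout against control in ungated cells this tally held only Pf4, Gp9 and P2rx1, and for the interaction only Pf4, Gp1bb and Itga2b. Genes left out of it changed sign too. In ungated cells 3 of the 9 were above 0 as reported, 6 without control 1 and 1 without control 2. In the interaction 0 were above 0 as reported and 4 without knockout 2. Numbers of genes called are given as reported and then by alternative. For knockout against control in all cells 474 became 946 with DESeq2, 1933 without the filter on low counts and 372 to 2890 with a library left out, where 0 to 1 of the 9 genes was called. In Mk-gated cells 133 became 515 without the filter, 60 with 1000 UMIs in gating and 77 to 959 with a library left out. Of the 9 genes 1 was called there, against 4 with 3 UMIs, 2 with copied barcodes kept, 0 with the gate without Nrgn, 5 without the filter and 0 to 8 with a library left out. In stem-gated cells 524 became 331 with DESeq2, 1476 without the filter, 256 with 1000 UMIs and 188 to 2262 with a library left out, and the 1 member called became 0 with DESeq2, 1000 UMIs or 3 UMIs and 0 to 1 with a library left out. In ungated cells 448 (119 higher) became 787 with DESeq2 (300 higher), 740 with copied barcodes kept, 2077 without the filter and 173 to 3065 with a library left out, with 1 and 0 to 2 of the 9 called in the last 2. Mk-gated against ungated cells gave 1163, then 509 with 3 UMIs, 279 with 1000 UMIs and 578 to 884 with a library left out (8 to 9 of the 9). Mk-gated against stem-gated cells gave 767, then 1249, 303 and 313 to 743. Stem-gated against ungated cells gave 2810, and 1799 to 2212 with a library left out, and the 4 of 9 became 2 with 3 UMIs or 1000 UMIs and 1 to 4. The interaction gave 67, then 10 with DESeq2, 18 without Nrgn, 24 with 1000 UMIs and 12 to 60.

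Same-numbered libraries did not deviate together (r from -0.172 to -0.137). This cannot exclude that the numbers pair them, since median depth rose from 6251 to 13180 UMIs between control 1 and control 2. Between knockout 1 and knockout 2 it fell from 17710 to 14400. With the replicate block 1257 genes were called in all cells, 363 in Mk-gated (3 of the 9) and 106 in stem-gated cells (0 of the 9). With the crossed pairing the counts were 1735, 837 (5 of the 9), 1652 and, in ungated cells, 1363.

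The difference in Mk-gated share ran from -2.361 to 0.4255 points with a library left out and that in stem-gated share from -3.84 to 2.311, with 0.13 when copied barcodes were kept.

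Sign changes among the results tallied are given on the log2 scale, as the lowest and highest value with a library left out. For knockout against control in all cells they were -0.36 to 0.17 for Itga2b, -0.46 to 0.57 for Gp1bb, -0.20 to 0.92 for Sdpr, -0.36 to 0.42 for Pf4 and -0.60 to 0.54 for Vwf (-0.0075 with the replicate block). In Mk-gated cells they were -1.18 to 0.52 for Sdpr and -0.88 to 0.069 for Vwf, and F2r had 0.0051 with the gate without Nrgn. In stem-gated cells they were -0.69 to 1.04 for Itga2b, -0.41 to 2.36 for Sdpr and -0.15 to 2.53 for Gp1bb, and Pf4 had -0.78 with 1000 UMIs in gating. Pf4 had -0.27 to 2.59 in ungated cells. For stem-gated against ungated cells they were -0.085 to 0.0198 for Gp9 (0.17 with 1000 UMIs) and -0.12 to 0.078 for F2r (0.32 with 3 UMIs). In stem-gated cells Gp5, Gp1bb and Sdpr had too few UMIs for a firm value.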
